A study of Homo sapiens with 9 samples.

Results

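The enzymes of glycolysis, lactate production and glycogen turnover were followed in OEC-M1 cells, an established human line from a squamous cell carcinoma of the head and neck, after knockdown of HIF1A or GATA3 under hypoxia. The 37 genes were listed by name from these pathways, with earlier results of these data known. Of the 37, 36 had a probe, among 47753 gene names on the arrays. ALDOA, which encodes the aldolase of muscle and most tissues, had no probe that matched through the reference and was not analysed here. There were 3 groups of 3 arrays each, and the groups are siControl (non-targeting siRNA), siGATA3 and siHIF1A. Cells of every group were kept in 1% O2 for 18 h, so no normoxic cells were measured, and the labels put RNA collection 72 h after transfection. The study names 1 siRNA per target for the arrays, so off-target changes and changes due to the target cannot be told apart. Nothing states that the arrays of a group came from separate cultures, so the P values measure the spread between these arrays, which may be technical. In RNA from whole cultures, fewer cells of a type and less RNA per cell cannot be told apart.

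Glycolysis splits glucose into pyruvate in the cytosol and yields ATP without oxygen. Lactate dehydrogenase then turns pyruvate into lactate and regenerates the NAD+ that the pathway needs, and glycogen synthase and its partners can store glucose as a branched polymer that phosphorylases break down again. Under low oxygen, HIF-1α protein is stabilized, pairs with ARNT and binds hypoxia response elements with the core ACGTG or GCGTG, and many genes for glycolytic enzymes are known targets. GATA3 is a zinc finger transcription factor, and the study asked whether it acts on HIF-1 target genes, among them PGK1.

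Values are log2 intensities after background correction and quantile normalization across the arrays, and 3 values in a row are replicates 1, 2 and 3. A gene was counted as lower or higher at an unadjusted two-sided P of 0.05 from limma, the threshold in the study's methods, and a fold change here is a difference between groups on the log2 scale. Levels of different genes come from different probes, so no gene is called more expressed than another. Median spot intensity was 992.5 to 2807.5 on the siControl arrays, 1410 to 2452 on siGATA3 and 2132 to 3560 on siHIF1A, the share of probes clearly above background was 73.3% to 88.0%, and no spot was saturated. The replicate number in the labels was also the slide in the file headers, and each slide held 1 array of every group. HIF1A itself was 16.71, 16.24 and 17.24 in siControl, 17.02, 16.03 and 16.99 in siGATA3 and 14.51, 14.13 and 14.59 in siHIF1A, so it fell in siHIF1A by 2.32 (SE 0.35, adjusted P = 0.295). GATA3 was 10.71, 11.12 and 11.48 in siControl, 9.64, 9.48 and 10.40 in siGATA3 and 10.30, 11.11 and 10.78 in siHIF1A, a fall of 1.27 on the log2 scale in siGATA3 (SE 0.34, unadjusted P = 0.00371, adjusted P = 1). Each target was thus lower on the arrays labelled with its siRNA than on every siControl array. Of 9 squamous epithelium markers, 7 were well above background on all 9 arrays, KRT6A on 8 and KRT5 on 0. Of 6 markers of other cell types with a probe, PTPRC, CD3E, PECAM1, VWF and COL1A1 were well above background on all 9 arrays and DCN on 7, although 2 of the 5 PTPRC probes were not above it on any array. The summed level of the 5 of these markers measured on every array was 15.44 to 16.83 in siControl, 15.98 to 16.75 in siGATA3 and 16.83 to 16.90 in siHIF1A on the log2 scale. Most of this sum was the brightest PTPRC probe, at 15.22 to 16.61 in siControl, where VWF was 11.38 to 13.75. Against siControl, 2 of the 6 had a difference below 0 in siHIF1A and 4 in siGATA3, and all 6 did in siGATA3 against siHIF1A, where DCN passed the test, as it did in siGATA3 against siControl. Of the 9 squamous markers, 2 had a difference below 0 in siHIF1A against siControl, where ITGB4 was higher, and 9 did in siGATA3 against siControl, where 0 passed. In siGATA3 against siHIF1A 8 of the 9 did, of which KRT6A and ITGB4 passed. Their part in the results was not tested.

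Of the 36 glycolysis and glycogen genes, 15 were lower in siHIF1A than in siControl and 0 were higher. Of all 47368 genes tested, 3.28% were lower and 1.95% were higher. The set was chosen with earlier results of these data known, so these shares describe it and do not test it. The median change of the 36 genes was -0.55 on the log2 scale, against -0.01 over all genes, and 27 of the 36 were below 0. All 15 were lower on every slide where both arrays gave a value, 11 fell by more than 1 on the log2 scale, and for 14 of them the siHIF1A arrays lay below all siControl arrays. Over the whole set, 19 of 36 genes (52.8%) had siHIF1A arrays entirely below siControl, where 8.08% of all genes did. No gene of the set passed an adjusted P of 0.05 over all genes, and neither did any other gene in this comparison, the smallest adjusted P being 0.127. For the 15 genes the adjusted P lay between 0.295 and 0.823. With the slide as a replicate block, 17 of the 36 were lower, where 5.29% of all genes were, the 2 added genes being PGM1 and PPP1R3B.

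**Figure D1:**
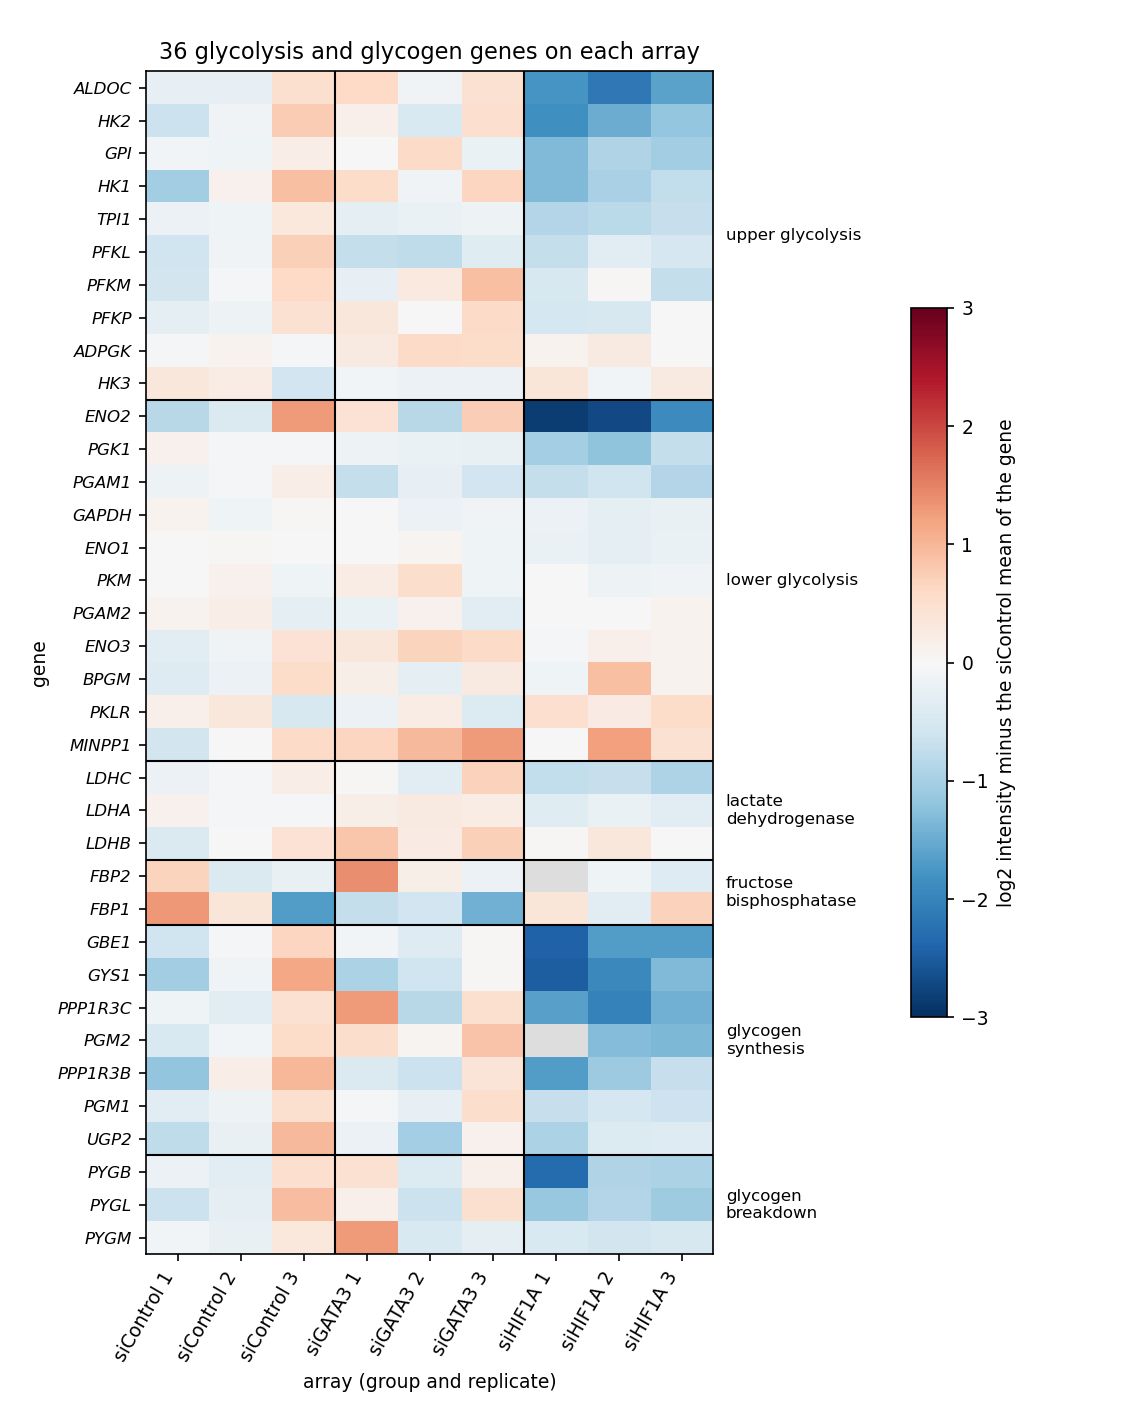
Heat map of the log2 intensity of 36 glycolysis and glycogen genes on 9 arrays, each gene shown as its difference from its own siControl mean, with blue for lower, red for higher and grey for a spot left out as non-uniform. The 3 siHIF1A columns are blue through most of the upper glycolysis and glycogen rows, and the siControl replicate 3 column is the reddest of the siControl columns.

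The siControl arrays were not alike for these genes. Replicate 3, whose median intensity of 992.5 was the lowest of all arrays, held the highest siControl value for 25 of the 36 genes, and the median SD among siControl arrays was 0.43, against 0.21 among siHIF1A arrays. Within slides, the median change of the set was -0.36 on slide 1, -0.37 on slide 2 and -1.04 on slide 3. Without siControl replicate 3, 12 genes were lower and 0 higher, the median change was -0.38, and 1.99% of all genes were lower. With array brightness entered as a covariate, 13 were lower and 2, BPGM and MINPP1, were higher, where 3.26% of all genes were lower and 4.57% higher, and the median was -0.34. In that fit HK1 (-0.43, unadjusted P = 0.135) and PYGL (-0.46, unadjusted P = 0.0623) lost the call, and HK2 (-0.99) and GYS1 (-1.25) kept it at values over 1.5 times smaller. A further alternative took the processed signal of the array software, scaled to the 75th percentile of each array. It replaced the background correction and the quantile normalization together, and is called 75th percentile scaling below. With it, the split over all genes changed to 2.39% lower and 2.69% higher. The set again had 15 lower and 0 higher, with a median of -0.77.

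The falls were spread over both arms of the pathway. In upper glycolysis, from hexokinase to triose phosphate, 5 of 10 measured genes fell, in lower glycolysis 3 of 11, among the lactate dehydrogenases 1 of 3 and among the fructose bisphosphatases 0 of 2. In glycogen synthesis 4 of 7 fell and in glycogen breakdown 2 of 3. Over all genes tested, 3.28% were lower, and groups of 2 or 3 genes are too small to set against that share. The median change was -1.33 for glycogen synthesis, -1.02 for glycogen breakdown, -0.65 for upper glycolysis and -0.07 for lower glycolysis. The first of these is the value of PGM2, which was placed in glycogen synthesis by name and measured on 2 siHIF1A arrays. Whether these groups differ was not tested.

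**Figure D2:**
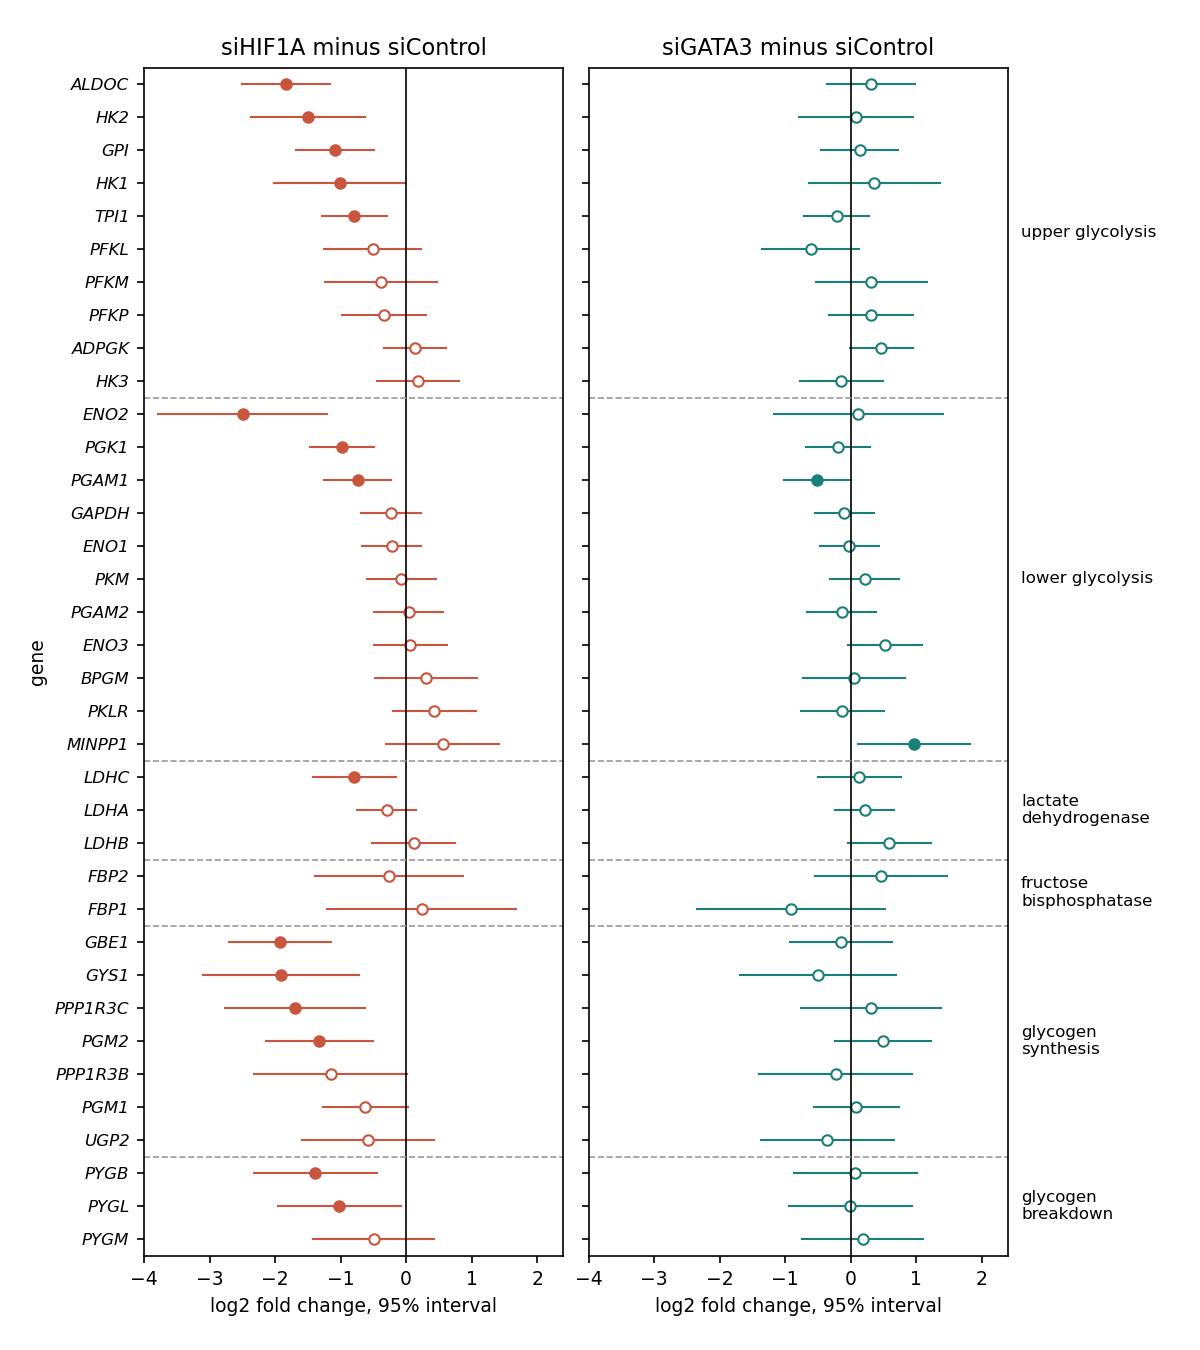
Log2 fold change of each gene in siHIF1A (left) and siGATA3 (right) against the same 3 siControl arrays, with 95% intervals from limma, grouped by role. Filled points passed an unadjusted P of 0.05, which 15 genes did in siHIF1A, all below 0, and 2 did in siGATA3, PGAM1 below 0 and MINPP1 above.

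Hexokinases trap glucose in the cell as glucose 6-phosphate, and HK2 is the form often raised in tumours. HK2 was 15.85, 16.38 and 17.24 in siControl, 16.65, 16.04 and 17.01 in siGATA3 and 14.65, 15.01 and 15.32 in siHIF1A. It fell by 1.49 on the log2 scale in siHIF1A (SE 0.39, unadjusted P = 0.00337, adjusted P = 0.706), 2.82-fold, with no overlap between siHIF1A and either other group, and both of its probes fell. HK1, the form most tissues use, was 14.98, 16.15 and 16.93 in siControl, 16.57, 15.91 and 16.66 in siGATA3 and 14.70, 15.05 and 15.27 in siHIF1A. Its fall of 1.01 on the log2 scale (SE 0.45, unadjusted P = 0.0481, adjusted P = 0.823) was the least stable of the 15. The lowest siControl array lay below the 2 highest siHIF1A arrays, within-slide differences ran from -1.66 to -0.28, and of 9 fits that each left out 1 array the call was kept in 2, those without siControl replicate 1 or siGATA3 replicate 2 (-0.56 without siControl replicate 3). HK3 and the ADP-dependent glucokinase ADPGK had differences of 0.18 and 0.13 that did not pass, although the dimmer of 2 ADPGK probes was higher, by 1.01.

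GPI, which turns glucose 6-phosphate into fructose 6-phosphate, was 17.32, 17.28 and 17.59 in siControl, 17.41, 17.98 and 17.20 in siGATA3 and 16.07, 16.49 and 16.36 in siHIF1A. The siHIF1A arrays of GPI all lay below the other 6, a fall of 1.09 on the log2 scale (SE 0.26, unadjusted P = 0.00217, adjusted P = 0.638). The next step, the phosphofructokinase reaction that commits sugar to glycolysis, had none of its 3 subunit genes past the threshold. PFKP was 15.50, 15.64 and 16.24 in siControl, 16.14, 15.80 and 16.37 in siGATA3 and 15.26, 15.31 and 15.80 in siHIF1A. PFKM was 11.43, 11.93 and 12.57 in siControl, 11.73, 12.28 and 12.88 in siGATA3 and 11.51, 12.01 and 11.27 in siHIF1A. The differences of siHIF1A from siControl were -0.34 for PFKP (95% interval -0.98 to 0.30), -0.38 for PFKM (-1.24 to 0.47) and -0.51 for PFKL (-1.25 to 0.23), with overlapping groups for all 3, and these intervals do not exclude a fall of a size seen in other steps.

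Aldolase and triose phosphate isomerase form and interconvert the 3-carbon sugars. ALDOC, the brain-type aldolase, was 15.01, 15.00 and 15.74 in siControl, 15.84, 15.15 and 15.70 in siGATA3 and 13.48, 13.12 and 13.66 in siHIF1A. It fell by 1.83 on the log2 scale, 3.57-fold (SE 0.30, unadjusted P = 0.000123), and had the lowest adjusted P of the set in this comparison, 0.295. TPI1 was 16.65, 16.69 and 17.14 in siControl, 16.56, 16.63 and 16.67 in siGATA3 and 15.95, 16.01 and 16.14 in siHIF1A. The siHIF1A values of TPI1 were close together and all below the other groups, a fall of 0.79 (SE 0.22, unadjusted P = 0.0052, adjusted P = 0.792).

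In lower glycolysis the fall was carried by PGK1, PGAM1 and ENO2. PGK1, phosphoglycerate kinase, makes the first ATP of the pathway and was 18.49, 18.30 and 18.31 in siControl, 18.22, 18.17 and 18.14 in siGATA3 and 17.34, 17.16 and 17.65 in siHIF1A. It fell in siHIF1A by 0.99, 1.98-fold (SE 0.22, unadjusted P = 0.00118, adjusted P = 0.543), with within-slide differences from -1.15 to -0.66. PGAM1, the phosphoglycerate mutase of most tissues, was 17.38, 17.48 and 17.72 in siControl, 16.81, 17.28 and 16.95 in siGATA3 and 16.80, 16.93 and 16.65 in siHIF1A. It fell by 0.74 (SE 0.23, unadjusted P = 0.00943, adjusted P = 0.823), and siHIF1A and siControl did not overlap. A near-identical gene, PGAM4, fell too, and because a probe of either gene may also bind the transcript of the other, their values are uncertain. PGAM2, BPGM and MINPP1, a phosphatase that removes phosphate from inositol phosphates and from 2,3-bisphosphoglycerate, had differences of 0.04, 0.30 and 0.56 that did not pass.

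Enolase showed the widest gap between isoenzymes. ENO2, the neuronal enolase, was 13.83, 14.22 and 15.94 in siControl, 15.10, 13.84 and 15.40 in siGATA3 and 11.81, 11.95 and 12.75 in siHIF1A. Every siHIF1A array was below the other 6, and the fall of 2.50 (SE 0.58, unadjusted P = 0.00156, adjusted P = 0.576) was 5.64-fold and the largest of the 36. ENO1, the enolase of most tissues, was 18.53, 18.56 and 18.51 in siControl, 18.52, 18.63 and 18.40 in siGATA3 and 18.34, 18.26 and 18.34 in siHIF1A. Its difference of -0.22 (SE 0.20, unadjusted P = 0.292, 95% interval -0.67 to 0.22) did not pass, although the siHIF1A arrays were again the lowest. Per array, the difference ENO2 minus ENO1 shifted by -2.27 from siControl to siHIF1A with no overlap, at P = 0.1 by an exact two-sided permutation test, the smallest that 3 against 3 arrays allow (adjusted over 18 isoenzyme comparisons, 0.257). HK2 minus HK1 shifted by -0.48, also without overlap and at that smallest exact P of 0.1. ENO3, the muscle form, had a difference of 0.07.

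**Figure D3:**
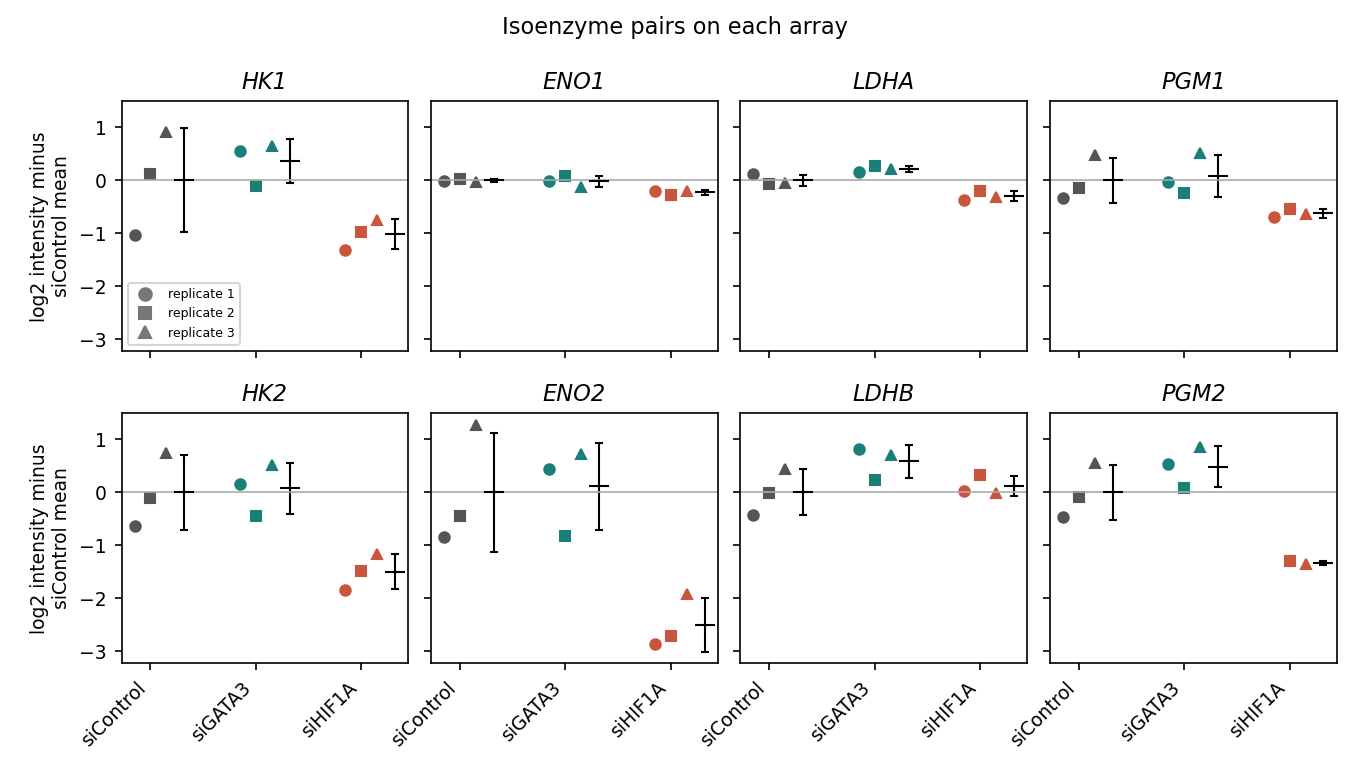
Log2 intensity of 4 isoenzyme pairs on each array, as the difference from the siControl mean of each gene, with mean and SD beside the points and 1 symbol per replicate (slide). In siHIF1A, ENO2 lies far below ENO1 on this scale, and PGM2 has 2 points because the spot of replicate 1 was left out.

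Lactate dehydrogenase closes anaerobic glycolysis, and its A and B subunits did not pass in siHIF1A. LDHA was 18.72, 18.53 and 18.54 in siControl, 18.76, 18.86 and 18.81 in siGATA3 and 18.23, 18.40 and 18.28 in siHIF1A. The 3 groups of LDHA did not overlap at any point, but the difference of -0.30 in siHIF1A (SE 0.20, unadjusted P = 0.174) did not pass, while the dimmer of its 2 probes fell by 0.56. LDHB was 16.25, 16.66 and 17.12 in siControl, 17.50, 16.91 and 17.38 in siGATA3 and 16.71, 17.01 and 16.66 in siHIF1A, a difference of 0.12 between siHIF1A and siControl (unadjusted P = 0.691). LDHC, the testis form, whose gene at chr11:18412318-18452063 follows LDHA at chr11:18394563-18408425 (GRCh38.p14), was 13.30, 13.44 and 13.67 in siControl, 13.51, 13.14 and 14.16 in siGATA3 and 12.73, 12.77 and 12.53 in siHIF1A. The fall of LDHC by 0.79 (SE 0.28, unadjusted P = 0.0194, adjusted P = 0.823) was lost without siControl replicate 3 (-0.69) and without siHIF1A replicate 3 (-0.72).

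For several genes with very bright probes the size of the difference depended on the processing, in which background treatment and scaling changed together. On the array where each ranked highest, the probes of LDHA, ENO1, PGK1, PKM and GAPDH stood at ranks 15, 48, 79, 84 and 136 of 58201 by signal, which places the probes in the range of the array and ranks no transcript. GAPDH, the glyceraldehyde phosphate dehydrogenase often used as a loading control, PKM, pyruvate kinase, LDHA and ENO1 had differences of -0.23, -0.07, -0.30 and -0.22 after quantile normalization. Scaled to the 75th percentile, the same 4 genes had differences of -0.73 (unadjusted P = 0.0806), -0.53 (unadjusted P = 0.129), -0.79 (unadjusted P = 0.0788) and -0.81 (unadjusted P = 0.0682), and PGK1 had -1.37, against -0.99 after quantile normalization. None of the 4 passed under either processing, and the difference of LDHB turned from 0.12 to -0.30. Over all genes the median change moved from -0.01 to 0.05. The 4 largest falls, ENO2, GBE1, GYS1 and ALDOC, were -2.64, -1.91, -1.90 and -1.84 with 75th percentile scaling, close to their quantile values.

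**Figure D4:**
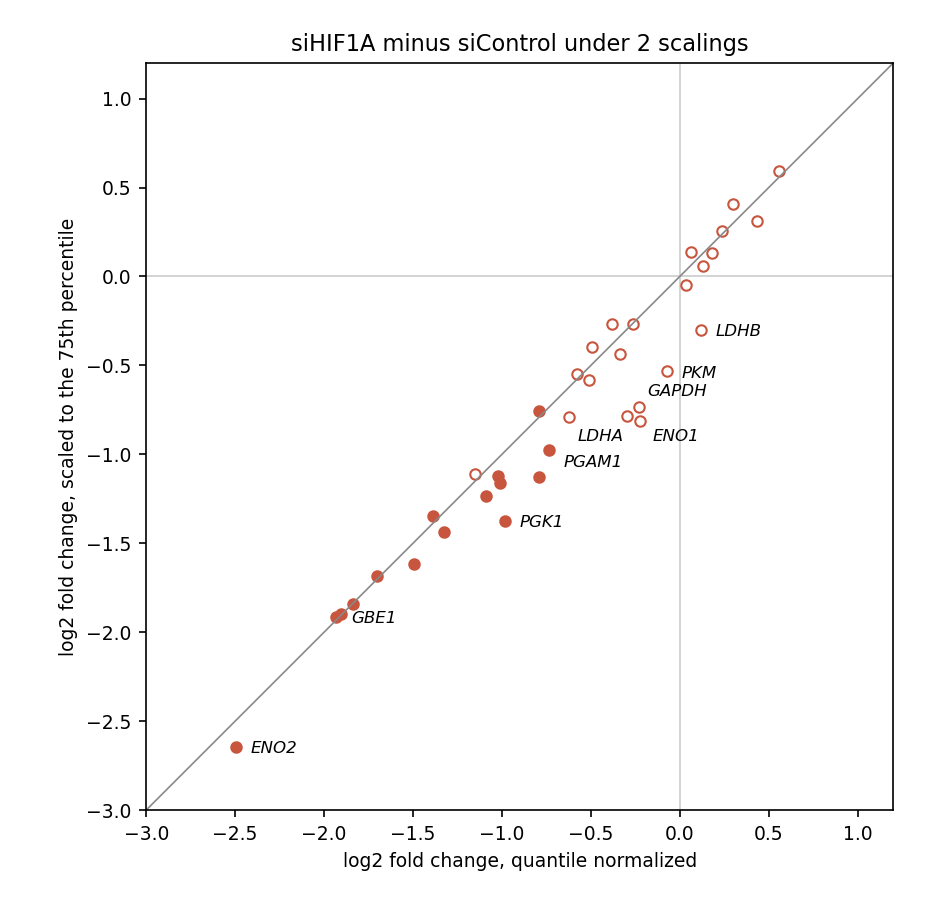
Log2 fold change of each of the 36 genes in siHIF1A against siControl, after quantile normalization (horizontal axis) and after 75th percentile scaling (vertical axis). The axes differ in background treatment as well as in scaling. The line marks equal values, and filled points are genes that passed after quantile normalization. ENO1, GAPDH, LDHA, PKM and LDHB lie furthest below the line, ENO1 at -0.22 and -0.81, and GBE1, at -1.93 and -1.91, lies close to it.

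Among the 10 genes listed under glycogen 6 fell, in both synthesis and breakdown, where 3.28% of all genes were lower. PGM2, placed there by name, is among the 6. GBE1, the branching enzyme, was 12.77, 13.32 and 14.01 in siControl, 13.29, 12.98 and 13.39 in siGATA3 and 10.94, 11.68 and 11.68 in siHIF1A. It fell by 1.93, 3.81-fold (SE 0.35, unadjusted P = 0.000255, adjusted P = 0.326), and by at least 1.64 on every slide. GYS1, the glycogen synthase of muscle and most tissues, was 13.45, 14.39 and 15.67 in siControl, 13.55, 13.91 and 14.54 in siGATA3 and 12.03, 12.57 and 13.18 in siHIF1A. Its fall of 1.91, 3.75-fold (SE 0.53, unadjusted P = 0.00514, adjusted P = 0.792), left no overlap, though siControl arrays alone spanned more than 2 log2 units.

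PPP1R3C, which brings protein phosphatase 1 to glycogen and so activates the synthase, was 12.53, 12.33 and 13.13 in siControl, 13.95, 11.82 and 13.13 in siGATA3 and 11.04, 10.63 and 11.21 in siHIF1A. It fell by 1.70 (SE 0.48, unadjusted P = 0.00527, adjusted P = 0.792), with siHIF1A below all other arrays and within-slide differences between -1.91 and -1.49. PPP1R3B, a targeting subunit of the same kind, had a difference of -1.15 with overlapping groups and just missed the threshold (unadjusted P = 0.0525, adjusted P = 0.823), which it passed with the slide as a block (unadjusted P = 0.00628). The phosphoglucomutase PGM1 links glucose 6-phosphate and the glucose 1-phosphate used for glycogen, and PGM2 was listed with it by name. PGM2 was 11.49, 11.86 and 12.50 in siControl and 12.48, 12.03 and 12.80 in siGATA3, and on the 2 siHIF1A arrays with a usable spot it was 10.65 and 10.60. On those 2 arrays it fell by 1.33 (SE 0.36, unadjusted P = 0.00519, adjusted P = 0.792). PGM1 was 14.71, 14.91 and 15.54 in siControl, 15.03, 14.82 and 15.58 in siGATA3 and 14.36, 14.52 and 14.42 in siHIF1A. Its siHIF1A arrays were the lowest of all, and the difference of -0.62 missed the threshold (unadjusted P = 0.058, adjusted P = 0.823) and passed it with the slide as a block (unadjusted P = 0.0347). UGP2, which makes UDP-glucose, had a difference of -0.58 that did not pass.

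Glycogen phosphorylase releases glucose 1-phosphate. PYGB, the brain form, was 13.85, 13.71 and 14.52 in siControl, 14.49, 13.62 and 14.19 in siGATA3 and 11.71, 13.12 and 13.09 in siHIF1A. It fell by 1.39 (SE 0.42, unadjusted P = 0.00814, adjusted P = 0.823), and siHIF1A replicate 1 was far below the other siHIF1A arrays. PYGL, the liver form, was 14.34, 14.70 and 15.92 in siControl, 15.13, 14.35 and 15.46 in siGATA3 and 13.85, 14.11 and 13.93 in siHIF1A. Its fall of 1.02 (SE 0.42, unadjusted P = 0.0356, adjusted P = 0.823) rested in part on siControl replicate 3, as the difference without that array was -0.56 and did not pass (unadjusted P = 0.131). The call was also lost without any 1 of the siHIF1A arrays. PYGM, the muscle form, had a difference of -0.49 that did not pass, with all siHIF1A arrays below siControl. FBP1 and FBP2, the fructose bisphosphatases of gluconeogenesis, had differences of 0.24 and, on 2 siHIF1A arrays, -0.26, and FBP1 had an SD of 1.52 in siControl.

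The promoters of the genes that fell furthest were searched for the core of the hypoxia response element. RefSeq windows of 300 bases, 250 before and 50 after a transcript start on GRCh38.p14, were held for 35 of the 37 genes, and PPP1R3B and PYGM had no window. The motifs ACGTG and GCGTG were counted on both strands, and the palindrome CACGTG counts once on each. At least 1 of them was found for 30 of 35 genes (85.7%), against 52.4% of 27305 genes with a window, but genes can have several windows, and the set has more per gene. Per window, 38 of 61 windows of the set (62.3%) and 48.4% of 35116 windows held one. Between genes that fell and genes that did not pass, the shares were close, with 13 of 15 (86.7%) and 16 of 19 (84.2%). ACGTG alone was in a window of 10 of the 15 genes that fell (66.7%), 8 of the 19 that did not pass (42.1%) and 24.9% of all genes. Per window it was in 47.8% for genes that fell, 25.7% for those that did not pass and 21.4% over all windows. No test was made of these shares. The GATA motif as AGATAA or TGATAA, on both strands, was found for 8 of 35 (22.9%), against 19.4% of all genes, and in 16.4% of the set's windows against 16.3% of all windows. The windows of the 5 largest falls are printed with LDHA, whose window had the most ACGTG matches of the set, and capitals mark ACGTG or GCGTG as read on either strand.
ENO2, chr12:6914330-6914629, plus strand: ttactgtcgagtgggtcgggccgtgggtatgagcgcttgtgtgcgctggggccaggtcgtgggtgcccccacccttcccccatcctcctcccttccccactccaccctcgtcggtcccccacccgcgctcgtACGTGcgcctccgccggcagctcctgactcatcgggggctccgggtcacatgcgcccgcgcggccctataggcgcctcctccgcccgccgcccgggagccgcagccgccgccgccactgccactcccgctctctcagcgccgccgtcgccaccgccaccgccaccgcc
GBE1, chr3:81761596-81761895, minus strand: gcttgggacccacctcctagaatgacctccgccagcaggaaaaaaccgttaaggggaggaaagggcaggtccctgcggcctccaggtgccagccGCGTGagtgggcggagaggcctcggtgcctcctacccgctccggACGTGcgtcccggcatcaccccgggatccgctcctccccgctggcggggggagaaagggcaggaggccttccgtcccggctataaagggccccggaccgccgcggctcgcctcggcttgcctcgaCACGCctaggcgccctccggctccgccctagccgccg
GYS1, chr19:48993260-48993559, minus strand: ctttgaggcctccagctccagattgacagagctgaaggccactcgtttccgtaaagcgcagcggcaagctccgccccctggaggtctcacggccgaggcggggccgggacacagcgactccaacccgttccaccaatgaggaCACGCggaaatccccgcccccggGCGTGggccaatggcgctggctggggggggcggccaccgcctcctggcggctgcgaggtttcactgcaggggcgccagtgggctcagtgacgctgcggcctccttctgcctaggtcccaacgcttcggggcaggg
ALDOC, chr17:28576846-28577145, minus strand: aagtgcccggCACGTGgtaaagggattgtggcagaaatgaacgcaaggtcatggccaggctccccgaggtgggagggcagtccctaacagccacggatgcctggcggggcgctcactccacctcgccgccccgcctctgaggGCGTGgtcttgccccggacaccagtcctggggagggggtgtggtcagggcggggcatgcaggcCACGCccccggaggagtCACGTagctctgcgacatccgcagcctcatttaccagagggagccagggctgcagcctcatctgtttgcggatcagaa
PPP1R3C, chr10:91633022-91633321, minus strand: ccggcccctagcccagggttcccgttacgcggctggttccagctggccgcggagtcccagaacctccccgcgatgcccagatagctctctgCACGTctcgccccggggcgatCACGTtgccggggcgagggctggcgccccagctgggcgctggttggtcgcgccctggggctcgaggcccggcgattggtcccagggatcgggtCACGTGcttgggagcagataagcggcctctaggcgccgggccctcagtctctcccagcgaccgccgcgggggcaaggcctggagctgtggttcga
LDHA, chr11:18394313-18394612, plus strand: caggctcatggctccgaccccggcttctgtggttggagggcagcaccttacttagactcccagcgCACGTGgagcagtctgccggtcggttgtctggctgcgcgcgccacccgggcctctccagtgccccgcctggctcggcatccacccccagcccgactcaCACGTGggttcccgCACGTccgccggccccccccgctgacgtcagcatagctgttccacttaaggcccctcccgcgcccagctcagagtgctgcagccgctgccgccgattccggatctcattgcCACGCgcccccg
ENO2 has 1 ACGTG and GYS1 has 2 GCGTG and no ACGTG, while GBE1 has 1 ACGTG and 2 GCGTG. ALDOC has 3 matches to ACGTG and 2 to GCGTG, PPP1R3C has 4 to ACGTG, and LDHA, which did not pass in siHIF1A, has 5 to ACGTG and 1 to GCGTG. A match is no evidence of binding, and PYGL and PGAM1 fell with neither motif in their windows.

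Falls were also seen in other genes of carbohydrate metabolism, among them 3 PFKFB enzymes. Of all 47368 genes tested, 3.28% were lower and 1.95% higher in siHIF1A. Of 24 further glycolysis and gluconeogenesis genes tested, 5 were lower and 1 was higher in siHIF1A, with a median of -0.14. The largest of these falls were in PFKFB1 (-2.62, unadjusted P = 5.03e-05) and PFKFB4 (-2.34, unadjusted P = 0.000901), followed by PFKFB3 (-1.30, unadjusted P = 0.00371), PGAM4 (-1.18) and the hexokinase HKDC1 (-0.95). PFKFB enzymes set the level of fructose 2,6-bisphosphate, the activator of phosphofructokinase. PFKFB4 was 12.94, 13.82 and 14.88 in siControl, 13.93, 13.91 and 14.75 in siGATA3 and 10.98, 11.40 and 12.24 in siHIF1A, and PFKFB1 likewise had all siHIF1A arrays, at 11.13 to 11.60, below the other 6. PGM2L1, which makes glucose 1,6-bisphosphate, rose by 0.82. Of 18 further glycogen genes, the glycogen-binding STBD1 (-1.68) and PPP1R3G (-1.49) fell and GYG2, a glycogenin, rose by 0.82, with a median of -0.02. Of 8 pentose phosphate genes RPE fell by 1.05 on the log2 scale. Of 17 citrate cycle genes 0 passed in either direction, with a median of -0.04, and this count is near the share over all genes. Adjusted P values for these genes were 0.295 or more.

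**Figure D5:**
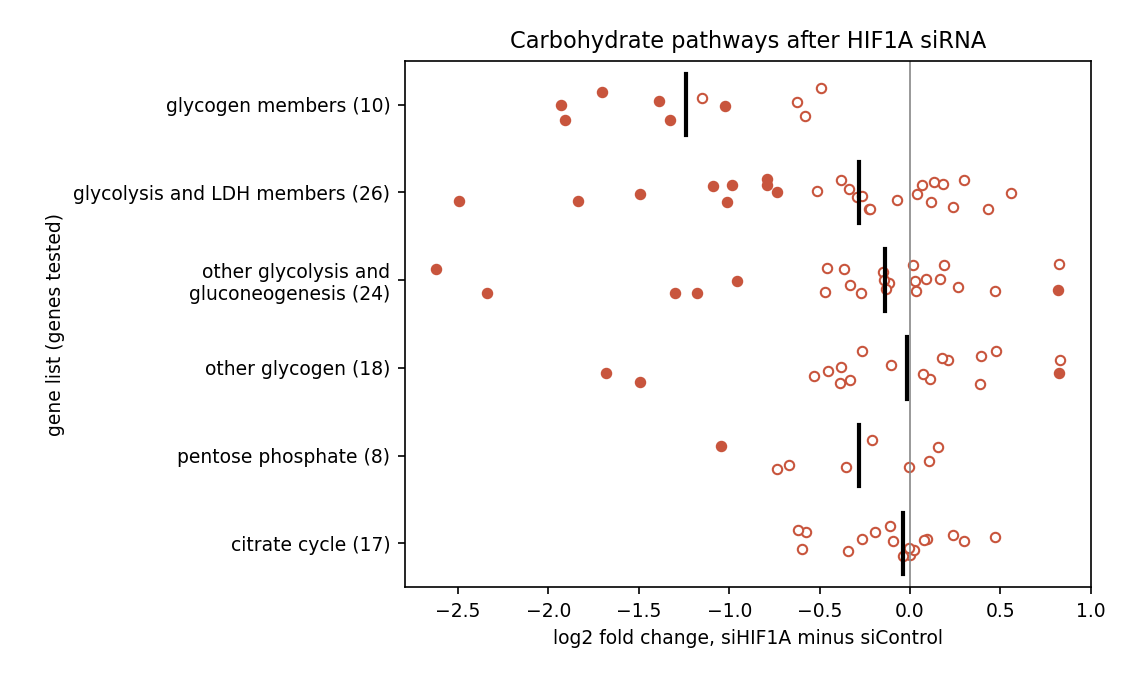
Log2 fold change in siHIF1A against siControl for 6 lists of carbohydrate genes, 1 point per gene, filled where the unadjusted P was 0.05 or less, with a bar at the median of each list. The median is -1.24 for the 10 glycogen genes of the set, -0.28 for its 26 other genes and -0.04 for the 17 citrate cycle genes.

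After knockdown of GATA3, 34 of the 36 genes did not pass the test against siControl. Of 36 genes, 1 was lower and 1 was higher in siGATA3 than in siControl, where 1.38% and 1.59% of 47720 genes were. Groups were apart for 2 genes below and 3 above siControl, where 3.43% and 2.59% of all genes were. The median change was 0.08, against -0.02 over all genes, and it was 0.43 within slide 1, -0.11 within slide 2 and -0.08 within slide 3. For 29 of the 36 genes the 95% interval excluded a fall of 1 log2 unit or more, and for 19 it excluded a change of that size in either direction. PGK1, the gene of this pathway the study followed, had a difference of -0.19 (95% interval -0.68 to 0.30), although its siGATA3 arrays were all below siControl. By RT-PCR the study reported significantly less PGK1 transcript in hypoxic OEC-M1 cells with GATA3 knocked down, and by western blot less PGK1 protein. Why the arrays and the RT-PCR differ was not tested. The difference of ENO2 was 0.11 (-1.18 to 1.41), that of HK2 0.07 (-0.80 to 0.95), that of GBE1 -0.15 (-0.92 to 0.63) and that of GYS1 -0.50 (-1.69 to 0.69).

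The 2 genes that passed in siGATA3 were PGAM1 and MINPP1. PGAM1 fell by 0.51 on the log2 scale (SE 0.23, unadjusted P = 0.0492, adjusted P = 1), with siGATA3 arrays below all siControl arrays, and its near copy PGAM4 fell by 1.05. The other of its 2 probes fell by 0.99 on the log2 scale in siGATA3 (unadjusted P = 0.0169) and by 1.24 in siHIF1A (unadjusted P = 0.00488). The PGAM1 call on the brighter probe was kept in 1 of 9 fits that left out an array and was lost with the slide as a block (unadjusted P = 0.0517) and with 75th percentile scaling (unadjusted P = 0.12), where the set had 0 lower and 1 higher and all genes 1.41% lower and 4.99% higher. MINPP1 was 10.77, 11.30 and 11.89 in siControl, 11.95, 12.29 and 12.60 in siGATA3 and 11.30, 12.55 and 11.78 in siHIF1A. It rose in siGATA3 by 0.96 (SE 0.38, unadjusted P = 0.0315, adjusted P = 1), and every siGATA3 array lay above siControl. The rise was kept in 5 of 9 fits that left out an array and was lost without siControl replicate 1 (0.69), siControl replicate 2 (0.95), siGATA3 replicate 2 (0.96) or siGATA3 replicate 3 (0.80), and with the mean of its 2 probes (0.91). With the slide as a block ENO3 also rose, by 0.52 (unadjusted P = 0.0497). Without siControl replicate 3, 1 gene was lower and 4 were higher in siGATA3, where 6.49% and 6.23% of all genes were, and the median change was 0.29. Without siControl replicate 1, siGATA3 replicate 1 or siGATA3 replicate 3 the median was between -0.03 and -0.01. With array brightness as a covariate 3 were lower and 5 higher, where 4.55% and 5.58% of all genes were.

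The knockdowns were also compared with each other, which tests whether their effects differ. Of 36 genes, 17 were higher in siGATA3 than in siHIF1A and 0 were lower, where 6.93% and 5.05% of 47356 genes were. The median difference was 0.66, against 0.00 over all genes, and it was 0.72, 0.37 and 0.56 within slides 1, 2 and 3. For 16 of the 17 the groups did not overlap, the exception being PFKP, and 20 of 36 genes in all had every siGATA3 array above siHIF1A, where 11.9% of all genes did. The largest differences were 2.61 for ENO2 (SE 0.58, unadjusted P = 0.00115, adjusted P = 0.213), 2.15 for ALDOC (SE 0.30, unadjusted P = 3.39e-05, adjusted P = 0.129), 2.01 for PPP1R3C (SE 0.48, unadjusted P = 0.00187, adjusted P = 0.257), 1.81 for PGM2 (2 siHIF1A arrays, SE 0.36, unadjusted P = 0.000735, adjusted P = 0.193) and 1.78 for GBE1 (SE 0.35, unadjusted P = 0.000463, adjusted P = 0.165). HK2, PYGB, GYS1, HK1, GPI and PYGL were higher by 1.57, 1.45, 1.41, 1.37, 1.22 and 1.02. LDHC, PGK1, PGM1, PFKP, TPI1 and LDHA were higher by 0.92, 0.80, 0.71, 0.64, 0.58 and 0.51. Adjusted P values of the 17 were 0.129 to 0.416. With the slide as a block 18 were higher and 0 lower, where 4973 and 3903 of 47356 genes were and 118 genes passed an adjusted P of 0.05, and ALDOC (adjusted P = 0.0351) and ENO2 (adjusted P = 0.0473) passed that adjusted threshold. With no block and all 9 arrays 2 genes of the whole array passed it, neither of them in the set. ALDOC also passed it with array brightness as a covariate (adjusted P = 0.0492, 51 genes in all), and ALDOC (adjusted P = 0.0297) and GBE1 (adjusted P = 0.0498) without siControl replicate 3 (109 genes in all).

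The comparison of both knockdowns and the comparison with siControl share the siHIF1A arrays, and both comparisons with siControl share the siControl arrays, so the 3 are not independent. PGAM1 was lower than siControl in both knockdowns, by 0.51 in siGATA3 and by 0.74 in siHIF1A, and differed between them by 0.22 (95% interval -0.29 to 0.73, unadjusted P = 0.355). The count of 17 fell to 11 without siHIF1A replicate 1 and to 11 without siGATA3 replicate 3, where the share of all genes that were higher fell from 6.93% to 3.97% and 3.57%. LDHA, TPI1, GYS1, PGM1, PYGL and PFKP each lost the call in 3 to 5 of the 9 fits that left out an array, and the other 11 genes kept it in all 9. PFKP kept the call in 3 of the 9 other alternative fits and lost it with 75th percentile scaling (unadjusted P = 0.0633). With array brightness as a covariate GYS1 (0.72, unadjusted P = 0.0834), PGM1 (0.39, unadjusted P = 0.0892), PYGL (0.43, unadjusted P = 0.0805) and PFKP (0.35, unadjusted P = 0.141) lost it, HK1 kept it at 0.76, HK2 kept it at 1.04, and BPGM, PFKL and UGP2 were lower, where 4.88% of all genes were higher and 4.94% lower. Among genes outside the set, PFKFB1, PFKFB4, PFKFB3, PPP1R3G and STBD1 were higher in siGATA3 than in siHIF1A by 2.75, 2.66, 1.33, 1.62 and 1.30. Of 17 citrate cycle genes 0 passed in either direction, where 6.93% of all genes were higher and 5.05% lower.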

How the data were processed

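RNA from 9 samples was labelled with 1 dye and hybridized to Agilent human expression arrays. The authors deposited Feature Extraction 10.5.1.1 files with spot intensity on a linear scale, not normalized between arrays, and marks for outlying spots. They also deposited a table of log2 values, used as an alternative. Following the study's methods, non-uniform spots were left out, background was corrected (normexp, offset 50, on median spot and background signal, since the files hold no mean signal), arrays were quantile normalized and limma 3.58.1 (lmFit, eBayes) in R 4.3.3 was fitted to the 3 groups together. Of 58201 probes, 31104 matched a RefSeq symbol by accession. The set had 43 probes, 7 of its genes had more than 1, and the probe with the highest mean stood for a gene. Adjusted P values are Benjamini-Hochberg over all genes tested. The fit was tested on simulated data. The genes and lists were chosen with earlier results of these data known. Values on every array are given for genes of the set that passed in any comparison and for isoenzyme pairs, and from other lists the 5 largest changes are named. Groups came from the sample titles, whose numbers were read as replicate numbers and match the slide. Deviations from group means correlated at -0.19 to 0.72 between arrays of 1 slide (9 pairs) and -0.69 to 0.47 between slides (18 pairs). The number of arrays limits the precision. Alternatives were background correction, scaling, the authors' table, dim probes, spot marks, the probe for a gene, a slide block, brightness, 6 arrays only and each array left out.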

Additional observations from a re-analysis of the deposited data

How the results depend on the processing

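Counts of lower and higher genes of the set stayed within 1.5 times their value, and medians within 1 SD of the within-slide medians, in the alternatives run, except as follows. At an adjusted P of 0.05 over all genes, in the fit of all 9 arrays with no block or covariate, the counts were 0 in all 3 comparisons, and between the knockdowns 2 passed with the block, 1 with brightness and 2 without siControl replicate 3. In siHIF1A against siControl that SD is wide, and the median went from -0.55 to -0.34 with brightness and to -0.77 with 75th percentile scaling. In siHIF1A against siControl, 1 gene was higher with the mean of a gene's probes and 2 with array brightness as a covariate. Over all genes 1.91% and 4.57% were higher in these fits. In siGATA3 against siControl, 0 were lower with no background correction, 75th percentile scaling, the authors' log2 table, dim probes left out, non-uniform spots kept, the replicate block or only the 6 arrays compared, and with brightness 3 were lower and 5 higher. Of all genes, 0.853% to 2.11% were lower in the former fits. With brightness 4.55% of all genes were lower and 5.58% higher. With the replicate block, 2 were higher in siGATA3, 17 were lower in siHIF1A and 18 were higher in siGATA3 than in siHIF1A. In that last comparison 3 were lower with brightness and 1 with 6 arrays, and the median was 0.85 with 75th percentile scaling and 0.41 with brightness. With 1 array left out at a time, lower counts in siHIF1A were 12 to 18 and medians -0.80 to -0.38. Of all genes, 1.81% to 6.29% were lower in these fits. In siGATA3 lower counts were 0 to 1, higher counts 0 to 4 and medians -0.03 to 0.29. Of all genes, 1.05% to 6.49% were lower there and 0.941% to 6.23% higher. Between the knockdowns higher counts were 11 to 18, lower counts 0 to 2 and medians 0.51 to 0.75. Of all genes, 3.57% to 10.8% were higher there and 2.13% to 10.4% lower. The cause of these shifts was not tested. Of the fits that leave an array out, those with 2 arrays in a group assume that it varies like the other groups. No gene that passed, and neither target, reversed direction in any fit. Replicate numbers pair arrays only through the slide, and not every same-slide correlation was above 0.1. The brightest probes and the dim siControl replicate 3 limit how far the size of a change can be read.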
